A study of Mus musculus with 6 samples.

Results

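The 10 genes described here encode the 5 subunits of the transcription factor NF-κB and 5 proteins that hold it back or modify it. They were taken by gene symbol from the deposited count table: Nfkb1, Nfkb2, Rel, Rela and Relb as subunits, and Nfkbia, Nfkbib, Nfkbie, Tnfaip3 and Bcl3 as inhibitors. All 10 were found among the 34718 genes of the table, and all 10 were among the 11975 genes with enough counts to test. RNA was sequenced from Hepa1-6, a mouse hepatoma line grown in DMEM with serum, in 3 libraries titled shZfp207 (Zfp207 lowered by short hairpin) and 3 titled shNC (the control). The labels tag the material as tumor, name no stimulus for either group, and do not say how many hairpins were used, whether the cells were clones, or whether replicates were grown apart. A hairpin's other effects therefore cannot be told apart from those of lower Zfp207, and p-values measure the spread between these libraries, which may be technical.

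NF-κB is a family of DNA-binding dimers. In resting cells IκB proteins keep the dimers in the cytoplasm, and a stimulus such as TNF or interleukin-1 activates the IKK kinases, which mark the IκB proteins for degradation. The released dimers switch on inflammatory and survival genes, among them the genes of several of their own inhibitors, so the pathway feeds back on itself. In the mouse liver this pathway is known for protecting hepatocytes from death caused by TNF.

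Among the 10 genes, the 3 that passed the test all encode classical IκB inhibitors, and they did not move in 1 direction. Nfkbia, encoding IκBα, rose 1.66-fold and Nfkbie, encoding IκBε, rose 1.57-fold in shZfp207 cells, while Nfkbib, encoding IκBβ, fell to 0.634 of its shNC level. Of the 5 subunits 0 passed with edgeR, where 20.6% of all genes tested did, and 0 with DESeq2, where 3238 of 11975 genes did. Of these subunits 1, Rela, had an unadjusted p under 0.05. Tnfaip3 and Bcl3 did not pass either. With a threshold of edgeR adjusted p below 0.05, 2 of the 10 genes were thus higher, where 9.92% of all genes tested were, and 1 was lower, where 10.7% of all genes tested were. In either direction 3 of 10 passed, against 20.6% of all genes, so the number of calls is not far from what the whole table gave. The median log2 fold change was 0.07 over the 5 subunits and 0.24 over the 5 inhibitors, against -0.03 over all genes tested. Without shNC replicate 1, described below, it was -0.18 over the subunits and -0.03 over the inhibitors, against 0.006 over all genes.

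The libraries held 11933736 to 16248346 counts each. Values per library below are CPM, counts relative to library size after scaling by TMM (trimmed mean of M values), unless FPKM is named. Zfp207 itself had 48.0, 48.4 and 47.2 CPM in shZfp207 libraries and 139.7, 198 and 216 CPM in shNC libraries, a log2 fold change of -1.95 (SE 0.170, adjusted p by edgeR 0.00236). The labelled cell type was checked with 12 hepatocyte markers, which summed to 6705 to 6952 CPM in shZfp207 libraries and 4263 to 5519 CPM in shNC libraries, with most of the difference in Alb, at 2242 to 2396 CPM in shZfp207 and 517 to 1209 CPM in shNC libraries, and Afp. Apoe went the other way, at 1084 to 1225 CPM in shZfp207 and 1647 to 1925 CPM in shNC libraries, as did Trf. Ttr and Serpina1a were at 0 to 0.345 CPM in all 6, and Apoa1 and Apoa2 at no more than 3.47 CPM. Of 12 leukocyte markers, Cd3e was at 0 in all libraries and Ptprc at 0 to 0.524 CPM, and the list summed to 43.8 to 45.3 CPM in shZfp207 libraries and 36.4 to 41.5 CPM in shNC libraries. Nearly all of that sum was Cd14, at 27.8 to 28.5 CPM in shZfp207 and 16.7 to 26.2 CPM in shNC libraries, and Cd68, at 10.3 to 12.6 CPM in shZfp207 and 12.8 to 16.8 CPM in shNC libraries. Csf1r was at 3.10 to 3.41 CPM in shZfp207 and 0.165 to 0.859 CPM in shNC libraries. Of 12 fibroblast and endothelial markers, Dcn alone had 2677 to 2788 CPM in shZfp207 and 1994 to 2273 CPM in shNC libraries. The fibroblast genes Col1a1, Col1a2 and Col3a1 had at most 0.735 CPM. In bulk RNA, fewer cells that express a gene and less RNA per cell cannot be told apart.

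One control library, shNC replicate 1, stood apart from the others. The share of counts from mitochondrially encoded genes was 5.605% to 6.00% in shZfp207 libraries, and 10.5%, 2.89% and 2.67% in shNC replicates 1 to 3. The nuclear RNA Malat1 had 104 to 131 CPM in shZfp207 libraries, and 326.7, 30.9 and 29.9 CPM in shNC replicates 1 to 3. The log2 CPM of shNC replicate 1 correlated with each of the other shNC libraries at 0.95 across genes, against 0.989 between those and 0.99 to 0.991 among shZfp207 libraries, where genes are not independent replicates. Without that library 6313 of 12108 genes passed, or 52.1%, and 6 of the 10 NF-κB genes did. The part of these differences in the results was not tested.

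**Figure D1:**
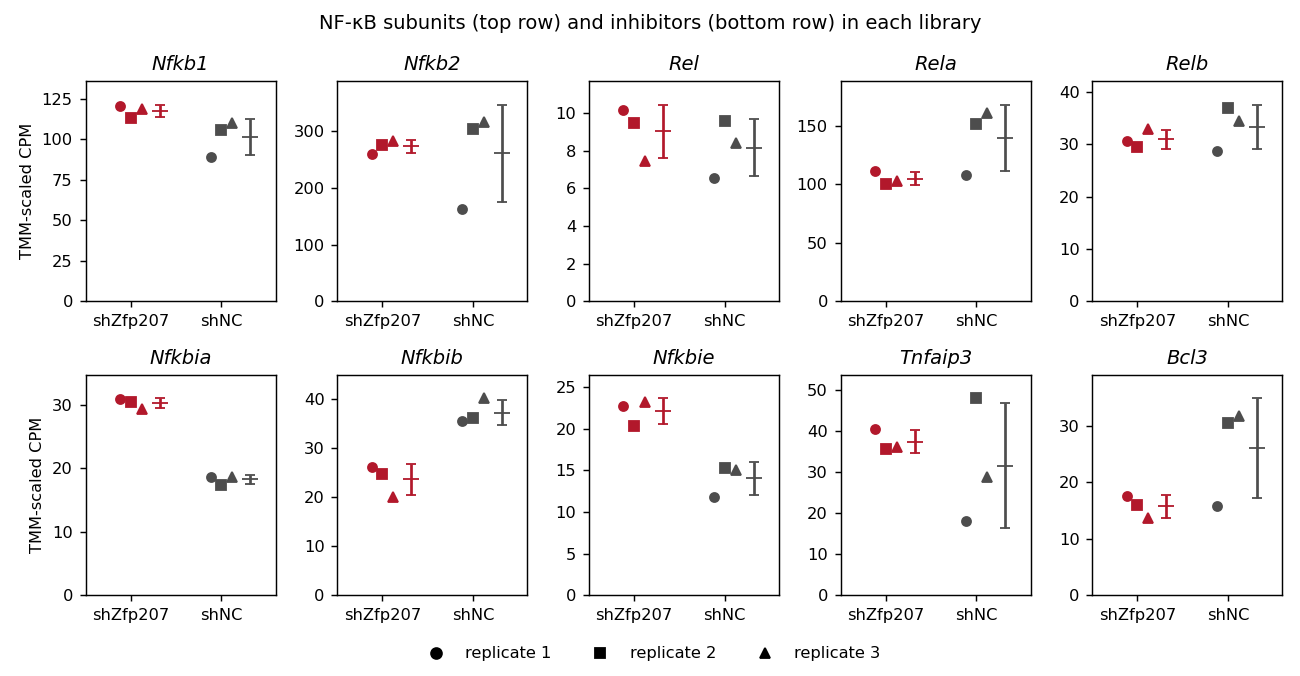
Abundance of each gene (vertical axis, TMM-scaled CPM, from 0) in the 3 shZfp207 libraries (red, left) and 3 shNC libraries (grey, right), with mean and SD beside the points and a marker shape for each replicate. Nfkbia lies between 29.4 and 30.9 CPM in shZfp207 libraries and between 17.4 and 18.7 CPM in shNC libraries, while shNC replicate 1 is the lowest control for the 9 other genes.

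Relative to the gene lengths that the authors used, Nfkb2 and Rela were the most abundant of the 10 in both groups. On the FPKM scale (fragments relative to gene length and library size, as the authors deposited them) Nfkb2 averaged 80.2 ± 2.97 in shZfp207 cells and 77.2 ± 25.0 in shNC cells (SD, n = 3 each). Rela followed with 38.4 ± 2.25 FPKM in shZfp207 cells and 51.6 ± 10.1 FPKM in shNC cells (SD, n = 3 each). Rel was the lowest in both groups, with 1.201 ± 0.193 FPKM in shZfp207 cells and 1.09 ± 0.196 FPKM in shNC cells (SD, n = 3 each). In shZfp207 cells the order from the top was Nfkb2, Rela, Nfkbia, Nfkbie, Nfkbib, Nfkb1, Relb, Bcl3, Tnfaip3 and Rel. There the ranges of neighbours overlapped only between Nfkbie and Nfkbib and between Nfkbib and Nfkb1. In shNC cells the order was Nfkb2, Rela, Nfkbib, Nfkbia, Bcl3, Nfkb1, Relb, Nfkbie, Tnfaip3 and Rel. There the ranges of Nfkb2 and Rela overlapped, as did those of each neighbouring pair from Bcl3 through Nfkbie. Nfkbie thus stood in place 4 in shZfp207 cells and in place 8 in shNC cells, and Nfkbib in place 5 in shZfp207 cells and in place 3 in shNC cells. These orders depend on the gene lengths behind the FPKM, which no source used here gives. All annotated exons together span 12061 bases for Nfkb1 and 3072 bases for Rela. In CPM, Nfkb1 averaged 118 in shZfp207 cells, above Rela at 105, and 102 in shNC cells, below Rela at 140.

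Rela encodes the subunit that carries the main activating domain of the classical dimer. It had 111, 101 and 103 CPM in shZfp207 libraries and 108, 152 and 161 CPM in shNC libraries. The shZfp207 libraries lay close together and overlapped the controls through shNC replicate 1 alone. The log2 fold change was -0.42 with an SE of 0.158 (adjusted p by edgeR 0.109), and without shNC replicate 1 it was -0.57 (SE 0.0589, adjusted p by edgeR 0.000278).

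Nfkb1 encodes a precursor that is cut to the DNA-binding partner of Rela. It had 121, 113 and 119 CPM in shZfp207 libraries and 89.0, 106 and 110.1 CPM in shNC libraries. All shZfp207 libraries lay above all shNC libraries, as happened in 1 direction or the other for 4 of the 10 genes, Nfkb1, Nfkbia, Nfkbib and Nfkbie, and for 44.7% of all genes tested. The difference for Nfkb1 was small, with a log2 fold change of 0.21 and an SE of 0.106 (adjusted p by edgeR 0.203). Without shNC replicate 1 it was 0.12 (adjusted p by edgeR 0.0804).

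Nfkb2 and Relb form the dimer of the alternative pathway, in which the Nfkb2 precursor both inhibits Relb and, once cut, binds DNA with it. Nfkb2 had 261, 276 and 283 CPM in shZfp207 libraries and 162, 304 and 317 CPM in shNC libraries. The shZfp207 values lay between shNC replicate 1 and the other controls. The log2 fold change was 0.07 with an SE of 0.245 (adjusted p by edgeR 0.874), and without shNC replicate 1 it turned to -0.18 (SE 0.0472, adjusted p by edgeR 0.0148). Up to 18.1% of the exonic sequence of Nfkb2 overlaps genes on the opposite strand, 531 bases of it AC114539.1 and 299 bases Psd. AC114539.1 is a long noncoding RNA gene for which no values were found in the deposited counts. Psd had 3.86 to 4.65 CPM in shZfp207 libraries and 4.46 to 6.75 CPM in shNC libraries. Relb had 30.5, 29.4 and 32.9 CPM in shZfp207 libraries and 28.7, 36.9 and 34.4 CPM in shNC libraries, and the groups overlapped. Its log2 fold change was -0.11 with an SE of 0.126 (adjusted p by edgeR 0.579), or -0.21 without shNC replicate 1 (adjusted p by edgeR 0.0782).

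Rel encodes c-Rel, a subunit best known from lymphocytes. It had 10.2, 9.49 and 7.44 CPM in shZfp207 libraries and 6.54, 9.55 and 8.40 CPM in shNC libraries, and the groups overlapped in part. The log2 fold change was 0.14 with an SE of 0.201 (adjusted p by edgeR 0.653). It rested on 79 to 155 counts per library.

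The balance among subunits in FPKM depends on the gene lengths used, but it can be compared between libraries. The 5 subunits summed to 132, 131 and 134 FPKM in shZfp207 libraries and 100.2, 159 and 167 FPKM in shNC libraries. Rela made up 30.9%, 28.0% and 27.9% of that sum in shZfp207 libraries and 40.0%, 34.8% and 35.5% in shNC libraries. The ratio of Nfkb2 to Rela FPKM was 1.88, 2.20 and 2.21 in shZfp207 libraries and 1.21, 1.61 and 1.58 in shNC libraries. The shZfp207 libraries lay above all controls in that ratio and below them in the Rela share. The ratio of Nfkb2 to Nfkb1 FPKM was 10.3, 11.7 and 11.5 in shZfp207 libraries and 8.73, 13.8 and 13.8 in shNC libraries, and there the groups overlapped. These are descriptions of genes chosen for their family, with no test.

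**Figure D2:**
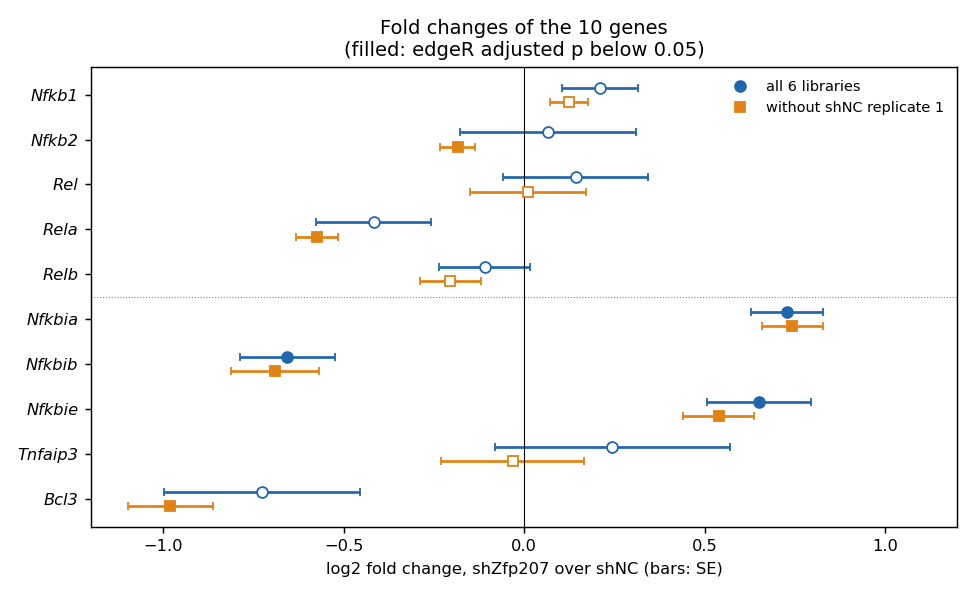
Log2 fold change of each gene (horizontal axis, shZfp207 over shNC, bars are SE) with all 6 libraries (blue circles) and without shNC replicate 1 (orange squares); filled symbols have an edgeR adjusted p below 0.05. Nfkbia, Nfkbib and Nfkbie are filled in both fits, while Nfkb2, Rela and Bcl3 are filled only without shNC replicate 1, where Nfkb2 and Tnfaip3 lie on the other side of 0.

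Nfkbia encodes IκBα, the fast-turning inhibitor that NF-κB itself induces. It lies on the minus strand of chromosome 12 from 55489411 to 55492647 (mm10), and no other annotated exon overlaps its exons. It had 30.9, 30.5 and 29.4 CPM in shZfp207 libraries and 18.7, 17.4 and 18.7 CPM in shNC libraries. Both groups were tight and far apart, and here shNC replicate 1 did not stand apart from the other controls. The means were 30.3 ± 0.762 CPM in shZfp207 cells and 18.3 ± 0.727 CPM in shNC cells (SD, n = 3 each), giving a log2 fold change of 0.73 and an SE of 0.0994 (adjusted p by edgeR 0.00627). With each of the 6 libraries left out in turn the log2 fold change stayed between 0.69 and 0.75 and passed every time, the highest adjusted p by edgeR being 0.0454. Of all genes tested, 4.08% passed with all libraries and with each of the 6 left out. Nfkbia was the only one of the 10 to do so.

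Nfkbie encodes IκBε, another inhibitor that NF-κB induces, with slower kinetics. Its gene runs from 45555716 to 45563169 on chromosome 17, plus strand, again with no overlapping exon. It had 22.7, 20.3 and 23.2 CPM in shZfp207 libraries and 11.7, 15.3 and 15.1 CPM in shNC libraries, without overlap. The log2 fold change was 0.65 with an SE of 0.143 (adjusted p by edgeR 0.0239), and without shNC replicate 1, its lowest control, it was 0.54 (adjusted p by edgeR 0.00361). The call was lost without shNC replicate 3 (adjusted p by edgeR 0.0556) and without shZfp207 replicate 1, 2 or 3 (adjusted p by edgeR 0.0962, 0.0741 and 0.107).

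Nfkbib encodes IκBβ, which holds the same dimers but is less tied to the feedback loop. It lies on the minus strand of chromosome 7 from 28758251 to 28767512. It had 26.1, 24.7 and 20.1 CPM in shZfp207 libraries and 35.5, 36.2 and 40.2 CPM in shNC libraries, every shZfp207 library being below every control. The means were 23.7 ± 3.14 CPM in shZfp207 cells and 37.3 ± 2.53 CPM in shNC cells (SD, n = 3 each), giving a log2 fold change of -0.66 and an SE of 0.132 (adjusted p by edgeR 0.0180). The call was lost without shNC replicate 3 (adjusted p by edgeR 0.0623) and without shZfp207 replicate 1, 2 or 3 (adjusted p by edgeR 0.0531, 0.0744 and 0.0758). Up to 16.4% of its exonic sequence overlaps genes on the opposite strand, 314 bases of it Ccer2 and 42 bases, or 1.94% of the exonic sequence, Sirt2. Ccer2, matched by its identifier, had 0 counts in all 6 libraries. Sirt2, a neighbouring deacetylase gene that was looked up after the Nfkbib values were seen, had 40.8, 43.4 and 36.7 CPM in shZfp207 libraries and 63.1, 68.0 and 58.5 CPM in shNC libraries. It fell with a log2 fold change of -0.65 and an SE of 0.109 (adjusted p by edgeR 0.0106). That call was lost in at least 1 fit with a library left out, with adjusted p by edgeR up to 0.0626. No source used here gives the strand setting of the counting, so reads of Nfkbib and of its opposite-strand neighbours may be mixed. Their part in the fall was not tested.

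In FPKM, the 3 classical IκB genes stood in other proportions in the 2 groups. Together they had 37.8, 35.7 and 34.7 FPKM in shZfp207 libraries and 29.0, 29.4 and 31.6 FPKM in shNC libraries. Nfkbia made up 51.9%, 53.6% and 53.3% of that sum in shZfp207 libraries and 41.4%, 37.4% and 37.5% in shNC libraries. Nfkbib made up 23.3%, 23.1% and 19.3% of it in shZfp207 libraries and 41.7%, 41.2% and 42.8% in shNC libraries. The ratio of Nfkbia to Nfkbib FPKM was 2.23, 2.32 and 2.75 in shZfp207 libraries, and in shNC libraries it was 0.992, 0.908 and 0.877. Set against Rela, the IκB sum was 0.923, 0.972 and 0.925 of the Rela FPKM in shZfp207 libraries and 0.722, 0.530 and 0.534 of it in shNC libraries. The groups did not overlap in any of these quantities, all of which are descriptions without a test. Nfkbia and Nfkbib had been called in opposite directions in these same libraries. The separation of their shares and ratio therefore follows largely from those calls and adds no support to them.

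**Figure D3:**
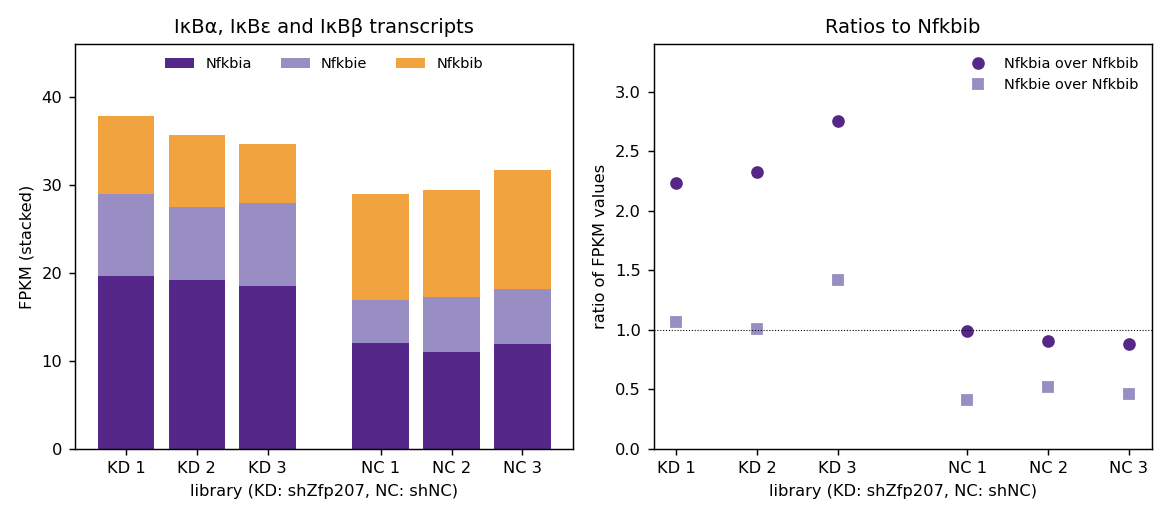
Left, stacked FPKM of Nfkbia, Nfkbie and Nfkbib in each library (vertical axis from 0); right, the ratios of Nfkbia and Nfkbie to Nfkbib FPKM, with a dotted line at 1. In shZfp207 libraries (KD 1 to 3) the Nfkbia to Nfkbib ratio lies between 2.23 and 2.75, and in shNC libraries (NC 1 to 3) between 0.877 and 0.992.

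The sequences just upstream of annotated starts of these genes were searched for the motif that NF-κB dimers are known to bind. RefSeq promoter windows (build GRCm38.p6, the assembly of mm10) were available for 8 of the 10 genes in 11 windows, leaving Nfkb1 and Relb. The kappaB consensus, a motif of 10 bases, was searched on both strands in the 250 bases before each annotated start. It matched in 7 of the 11 windows, against 3.90% of all 32851 windows and 4.51% of windows of genes tested. By gene it matched in 5 of the 8, for which no share over all genes was counted. Every window of Nfkb2 matched, and 250, 167 and 234 of the 250 bases searched in them were exonic. The genes were chosen for their role in a pathway that feeds back on itself, so this is no test. Nfkb2, Rel, Tnfaip3, Nfkbia and Nfkbie held a match, some of those in Rel and Nfkb2 being overlapping copies. Rela, Bcl3 and Nfkbib held none, which says only that these letters are not in these windows. The Nfkbib window, from 28766595 to 28766894, lies inside the gene as placed above. The bases before the outer end of that gene, at 28767512, were not searched. The upstream stretches of the genes that passed the test are shown first, then that of Tnfaip3, which holds matches and did not pass. They are written 5′ to 3′ on the strand of the gene with matches in capitals, and annotated exons are left out, which shortens those of Nfkbib and Tnfaip3.
Nfkbia, chr12:55492648-55492897, minus strand: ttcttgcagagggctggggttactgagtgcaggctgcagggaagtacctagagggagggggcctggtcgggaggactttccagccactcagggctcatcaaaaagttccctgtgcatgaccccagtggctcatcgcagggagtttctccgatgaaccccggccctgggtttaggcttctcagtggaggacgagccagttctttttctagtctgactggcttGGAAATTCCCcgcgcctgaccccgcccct
Nfkbie, chr17:45555450-45555699, plus strand: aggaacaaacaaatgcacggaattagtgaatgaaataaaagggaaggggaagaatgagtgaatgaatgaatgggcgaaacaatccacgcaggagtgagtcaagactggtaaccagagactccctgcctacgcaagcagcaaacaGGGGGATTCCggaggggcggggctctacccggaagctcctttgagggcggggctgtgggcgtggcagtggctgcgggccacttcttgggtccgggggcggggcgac
Nfkbib, chr7:28766645-28766734, minus strand: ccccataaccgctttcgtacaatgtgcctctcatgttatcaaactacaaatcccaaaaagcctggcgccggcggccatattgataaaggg
Tnfaip3, chr10:19015411-19015547, minus strand: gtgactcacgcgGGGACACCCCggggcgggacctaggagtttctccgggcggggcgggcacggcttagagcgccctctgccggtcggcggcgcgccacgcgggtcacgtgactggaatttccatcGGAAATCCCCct
The match of Nfkbia begins 29 bases before the start and reads on the reverse strand, and that of Nfkbie begins 106 bases before the start and reads forward. Tnfaip3 has one 125 bases and another 12 bases before 1 annotated start. Its other window, from 19011914 to 19012213, held none. With all libraries, the genes with a match were 2 that rose and 3 that did not pass, and the gene that fell had none in its window. Without shNC replicate 1 Nfkb2, which holds matches, also passed as lower. A match is a run of letters and not evidence of binding in these cells.

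Tnfaip3 encodes A20, an enzyme that edits ubiquitin chains and shuts off signalling from the TNF receptor. It had 40.5, 35.5 and 36.1 CPM in shZfp207 libraries and 18.0, 47.9 and 28.7 CPM in shNC libraries. The controls spread on both sides of the shZfp207 libraries. The log2 fold change was 0.24 with an SE of 0.325 (adjusted p by edgeR 0.633), and without shNC replicate 1 it turned to -0.03 (SE 0.198, adjusted p by edgeR 0.904). Bcl3 encodes an atypical IκB protein that acts in the nucleus on DNA-bound dimers. It had 17.7, 16.03 and 13.6 CPM in shZfp207 libraries and 15.9, 30.5 and 31.8 CPM in shNC libraries, so that only shNC replicate 1 lay among the shZfp207 values. The log2 fold change was -0.73 with an SE of 0.271 (adjusted p by edgeR 0.105), and without that library it was -0.98 (SE 0.118, adjusted p by edgeR 0.000556). As large a fold change as that of Nfkbia was therefore not called for Bcl3, whose controls were 26.1 ± 8.85 CPM (SD, n = 3). Up to 6.51% of its exonic sequence overlaps a predicted gene on the opposite strand, which had 0 counts in all 6 libraries.

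Without shNC replicate 1 the 10 genes gave 2 higher and 4 lower, where 26.1% of all genes were higher and 26.1% lower. The lower ones were Nfkbib, Nfkb2, Rela and Bcl3. The 6 of 10 that passed stand beside 52.1% of all genes in that fit. Over the 6 libraries Rela and Bcl3 had the closest patterns of any pair among the 10, with a Pearson correlation of log2 CPM of 0.98. Both were low in all shZfp207 libraries and in shNC replicate 1. Nfkbia and Nfkbib correlated at -0.90, and Nfkbie and Nfkb1 at 0.93. These correlations share the 6 libraries and their 2 groups, and describe them without a test.

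The genes most like the called inhibitors were sought among 10243 other genes with a mean of at least 2 CPM, by the same correlation over the 6 libraries. For Nfkbia they were Kmt2d (0.9982), Rnf43 (0.9981) and Zfp217 (0.9979), and 493 genes exceeded 0.95. For Nfkbie they were Brd3 (0.9956), Traf6 (0.9953) and Prnp (0.9951), with 541 genes above 0.95. For Nfkbib they included Prodh (0.9955) and Jak3 (0.9927), with 175 genes above 0.95. With 6 libraries in 2 groups, such values are common in this table.

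Of the other genes of the pathway, those upstream and downstream of the IκB proteins, 79 of 107 could be tested and 12 passed, 7 higher and 5 lower. That is 15.2%, below the 20.6% of all genes tested. Their median log2 fold change was 0.05, against -0.03 over all genes.

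Several ligands that start the pathway were close to absent. Il1a, Il1b and Cd40lg had 0 counts in all 6 libraries, a count that leaves room for at most 0.184 to 0.248 CPM (3 counts, by library, counting error only), and Tnf had 1 count in shNC replicate 1 and 0 elsewhere. Of 13 ligands 5 could be tested. By edgeR 0 of these passed, where 20.6% of all genes tested did, and by DESeq2 0 passed, where 3238 of 11975 genes did. With only 5 genes tested, this is no result about ligands as a group. An unadjusted p under 0.05 was found for 0 of the 5. Il33, an alarmin of the interleukin-1 family, was the most abundant, with 35.1, 45.4 and 45.1 CPM in shZfp207 libraries and 25.7, 51.6 and 54.0 CPM in shNC libraries. It passed only without shNC replicate 1, its lowest control, at a log2 fold change of -0.34 (adjusted p by edgeR 0.0474). Tnfsf12, the gene of the TNF family ligand TWEAK, averaged 11.99 ± 1.08 CPM in shZfp207 cells and 9.36 ± 1.87 CPM in shNC cells (SD, n = 3 each), and up to 48.3% of its exonic sequence is shared with another gene on its strand.

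Of 17 receptors 10 could be tested, and 1 was higher and 2 were lower, or 30.0% against 20.6% of all genes, with a median log2 fold change of -0.10. The fit without shNC replicate 1 gave 2 higher and 3 lower, beside 52.1% of all genes. Il1r1, the signalling receptor for interleukin-1, had 33.1, 35.3 and 30.8 CPM in shZfp207 libraries and 13.5, 16.3 and 16.6 CPM in shNC libraries. The shZfp207 libraries were well above the controls, with a log2 fold change of 1.10 and an SE of 0.127 (adjusted p by edgeR 0.00425), and the call held with each library left out. Cd40, a TNF family receptor that feeds the alternative pathway, had 3.34, 3.34 and 4.89 CPM in shZfp207 libraries and 9.43, 7.28 and 8.10 CPM in shNC libraries. It fell by 1.10 in log2 terms (adjusted p by edgeR 0.0174). Tlr2, a receptor for bacterial lipoproteins, fell by 0.87 in log2 terms (adjusted p by edgeR 0.0272). The Cd40 call was lost without shNC replicate 3 or shZfp207 replicate 1 or 2 (adjusted p by edgeR 0.0533, 0.0799 and 0.0846). Leaving out any library other than shNC replicate 1 lost the Tlr2 call, with adjusted p by edgeR up to 0.117. The main TNF receptor gene Tnfrsf1a, named outside the rule for its role, had a log2 fold change of 0.09 (adjusted p by edgeR 0.642).

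Among 28 IKK kinases and adaptors, all of which could be tested, 2 were higher and 1 lower, or 10.7% against 20.6% of all genes, with a median log2 fold change of 0.01. Without shNC replicate 1, 9 were higher and 3 lower, where 52.1% of all genes passed. With DESeq2 4 were higher and 2 lower, where 3238 of all 11975 genes tested passed. Traf6, the ubiquitin ligase that relays interleukin-1 receptor signals, rose by 0.42 in log2 terms (adjusted p by edgeR 0.0333), and Tab2, the partner of the kinase TAK1 that binds ubiquitin chains, rose by 0.37 (adjusted p by edgeR 0.0381). Sharpin, a subunit of the linear ubiquitin ligase complex, averaged 13.2 ± 0.699 CPM in shZfp207 cells and 20.9 ± 1.118 CPM in shNC cells (SD, n = 3 each), with a log2 fold change of -0.67 and an SE of 0.111 (adjusted p by edgeR 0.0102). Its partners in that complex, Rnf31 and Rbck1, had log2 fold changes of 0.01 and -0.11 and did not pass. The IKK subunit genes Chuk, Ikbkb and Ikbkg did not pass, at -0.03, 0.01 and 0.30 in log2 terms (adjusted p by edgeR 0.874, 0.970 and 0.146). These 5 genes were named for their role, outside the rule. Leaving out any library other than shNC replicate 1 lost the calls for Traf6 and Tab2, with adjusted p by edgeR up to 0.139 and 0.148. With no filter beyond 1 count they were lost too (adjusted p by edgeR 0.0605 and 0.0758). The call for Sharpin was lost without shZfp207 replicate 2 or 3 (adjusted p by edgeR 0.0643 and 0.0644).

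Of 19 other IκB proteins and negative regulators, 18 could be tested, 2 were higher and 2 lower, or 22.2% against 20.6% of all genes, with a median log2 fold change of 0.05. Leaving out shNC replicate 1 gave 6 higher and 5 lower, beside 52.1% of all genes. N4bp1, known as an inhibitor of NF-κB signalling, had 137, 137 and 130.8 CPM in shZfp207 libraries and 97.0, 72.7 and 67.9 CPM in shNC libraries, and rose by 0.77 in log2 terms (adjusted p by edgeR 0.0148). Nlrc5, better known as the activator of MHC class I genes, rose by 0.84 (adjusted p by edgeR 0.0393). Nkrf, a nuclear repressor that binds NF-κB target promoters, fell by 0.85 (adjusted p by edgeR 0.0337), and Ikbip, whose product interacts with IKKβ, fell by 0.34 (adjusted p by edgeR 0.0274). The N4bp1 call was lost without shZfp207 replicate 1, 2 or 3 (adjusted p by edgeR 0.0649 to 0.0706). Of the 6 fits with a library left out, those for Nlrc5, Nkrf and Ikbip held only in that without shNC replicate 1, with adjusted p by edgeR up to 0.137 in the others. The Ikbip call was also lost with no filter beyond 1 count (adjusted p by edgeR 0.0724), and that for Nlrc5 with upper-quartile scaling (adjusted p by edgeR 0.0629).

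Of 35 genes widely described as NF-κB targets, 22 could be tested, 2 were higher and 0 lower, or 9.09% against 20.6% of all genes. DESeq2 gave 3 higher and 1 lower, where it called 3238 of all 11975 genes tested. Their median log2 fold change was -0.003. Cx3cl1, the membrane chemokine fractalkine, had 98.8, 89.4 and 92.8 CPM in shZfp207 libraries and 10.4, 17.7 and 15.3 CPM in shNC libraries, with a log2 fold change of 2.69 and an SE of 0.197 (adjusted p by edgeR 0.00153). It passed with each library left out. Irf1, a transcription factor of the interferon response, had 33.0, 35.9 and 33.7 CPM in shZfp207 libraries and 21.02, 22.1 and 22.8 CPM in shNC libraries, with a log2 fold change of 0.64 and an SE of 0.0994 (adjusted p by edgeR 0.00865). That call was lost without shZfp207 replicate 2 or 3 (adjusted p by edgeR 0.0549 and 0.0541). The 13 targets that could not be tested had at most 10 counts in any library, among them Il6 and Nos2. Other inflammatory targets were present and did not pass with all libraries, such as the adhesion genes Icam1 and Vcam1, which differed in direction. Icam1 had 102 to 106 CPM in shZfp207 libraries and 77.9 to 97.0 CPM in shNC libraries, without overlap. The log2 fold change of Icam1 was 0.26 (adjusted p by edgeR 0.123). Without shNC replicate 1 Icam1 passed as higher, at 0.35 (adjusted p by edgeR 0.00202). Vcam1 went the other way, at 36.4 to 41.1 CPM in shZfp207 libraries and 44.8 to 55.8 CPM in shNC libraries, without overlap. Its log2 fold change was -0.34 (adjusted p by edgeR 0.0894). Without shNC replicate 1 Vcam1 passed as lower, at -0.38 (adjusted p by edgeR 0.0221). Il6, Nos2, Icam1 and Vcam1 were named after their values were seen. Without shNC replicate 1 the list had 11 higher and 3 lower of 22, beside 26.1% in each direction among all genes, and a median log2 fold change of 0.24.

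**Figure D4:**
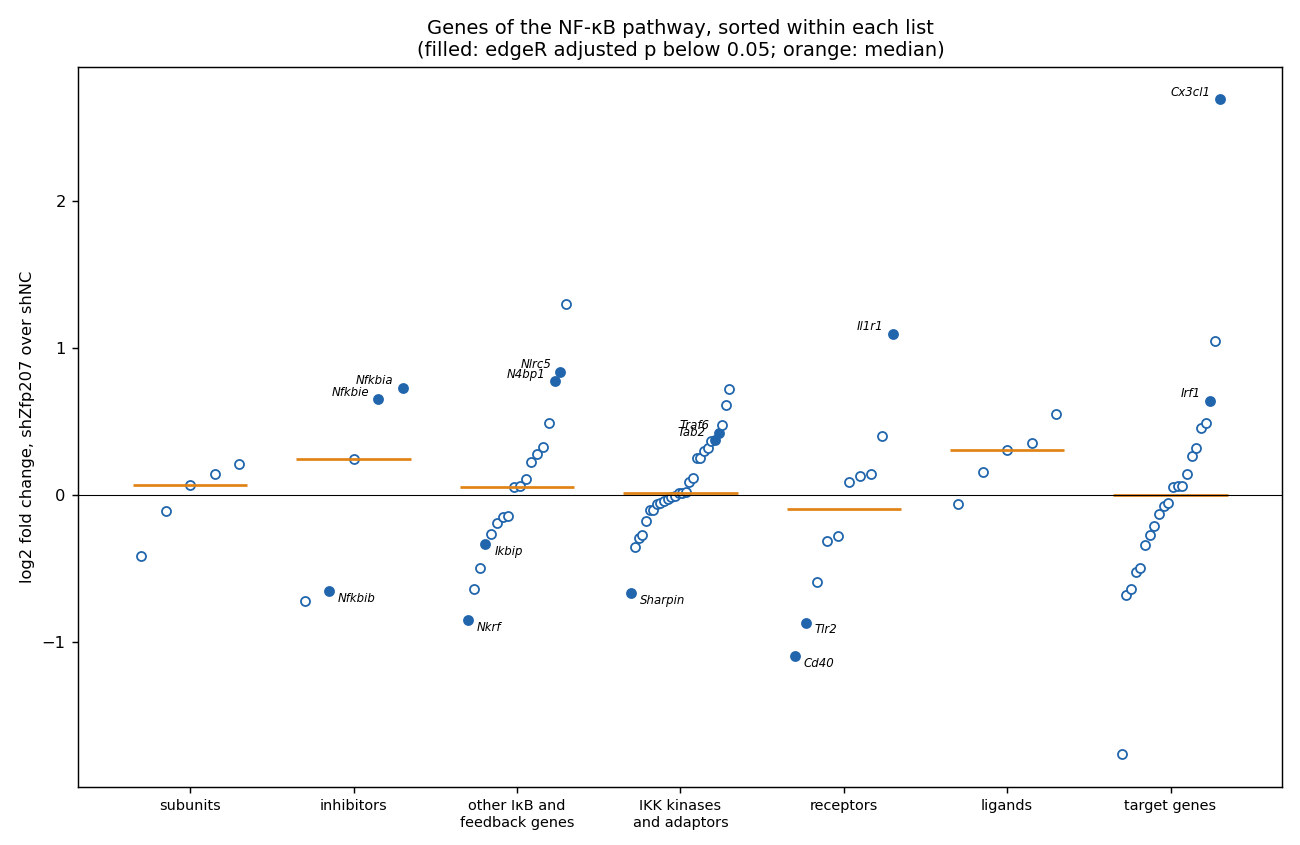
Log2 fold change (vertical axis, shZfp207 over shNC) of each tested gene, sorted within its list; filled and named points have an edgeR adjusted p below 0.05 and orange lines are list medians. Calls fall on both sides of 0 in the inhibitors, the feedback genes, the IKK list and the receptors, and Cx3cl1, at 2.69, stands furthest from 0.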

How the data were processed

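RNA sequencing of 6 Hepa1-6 libraries, 3 shZfp207 and 3 shNC by their titles, was analysed. The authors deposited raw read counts per gene and FPKM values for 34718 genes, per the file headers. HISAT2 2.0.5, featureCounts 1.5.0-p3 and the mm10 build appear in the submitters' processing notes, without roles. No source used here gives the annotation or the strand setting. The test on counts used edgeR 4.0.16 (R 4.3.3): filterByExpr (11975 genes left), TMM, a quasi-likelihood fit on group, two-sided, Benjamini-Hochberg over all genes tested, threshold 0.05. SE is the log2 fold change over the root of F. Depth was 11933736 to 16248346 counts. The procedure was tested on simulated data without an outlying library, so that test does not cover a library like shNC replicate 1. Of the identifiers, 98.6% were in GENCODE M21, which gave strand and exonic overlap. Alternatives comprised scaling by RLE or by the upper quartile, 2 other filters, mitochondrial genes left out, DESeq2 1.42.0, a replicate block, and each library left out.

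The 10 genes and the lists were chosen with earlier results of these data known. Named were all 10 genes, Zfp207, the 3 genes most correlated with each called one, and from each other list up to 4 called genes, taken by smallest p (otherwise the 2 most abundant). One gene named by this rule is not reported here.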

Additional observations from a re-analysis of the deposited data

How the results depend on the processing

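Among the 10 NF-κB genes, 3 passed under RLE scaling, upper-quartile scaling, no filter beyond 1 count, at least 10 counts in every library of a group, DESeq2 and with mitochondrially encoded genes left out, in each case Nfkbia, Nfkbib and Nfkbie. With 1 library left out the number ranged from 1 to 6, the 6 coming without shNC replicate 1, and the 1 (Nfkbia) without shNC replicate 3 or any shZfp207 replicate. Over all genes these fits gave 534 to 6313 calls against 2466, and over the other pathway genes 2 to 40 against 12. With the replicate number as a block, 1 of the 10 genes passed (Nfkbia, edgeR adjusted p = 0.0412), 4 other pathway genes and 987 genes in all. The labels do not say that a replicate number marks a shared culture or day, so the numbers are not taken as pairs. Deviations from group means correlated across genes at -0.008, 0.00771 and 0.0527 between libraries of the same number. Between libraries of different numbers they correlated at -0.0474 to 0.0243. With 3 libraries per group, 1 of them set apart, these values cannot show whether the numbers are pairs. With 1 library left out the log2 fold change ranged from -0.18 to 0.23 for Nfkb2, from -0.032 to 0.67 for Tnfaip3 and from -0.34 to 0.11 for Il33. The lowest value came without shNC replicate 1 each time, and Il33 was above 0 without shNC replicate 2 or 3 or shZfp207 replicate 1. The cause was not tested. TMM scaling of FPKM kept all 20 places in the order of levels. With TMM factors of 0.9917 to 1.013 it could hardly have moved them, and it does not test the gene lengths used. At this depth a gene with 0 counts in a library may still have had up to 0.184 to 0.248 CPM. Among the other named pathway genes, Traf6, Tab2 and Ikbip lost their calls with no filter beyond 1 count and Nlrc5 with upper-quartile scaling. All 4 lost them with the replicate block as well. So did Sharpin, Cd40, Tlr2 and Nkrf (adjusted p by edgeR 0.0533, 0.0547, 0.0540 and 0.0877 with the block).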
